A study of Mus musculus with 8 samples.

Results

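Notch signalling and its inhibitor Numb were followed through 10 genes, Notch1, Notch2, Jag2, Dll1, Rbpj, Hes1, Dtx4, Lfng, Mfng and Numb, in blood stem and progenitor cells of normal mice and of mice with a conditional knockout of Msi2, whose arrays kept part of the Msi2 signal. The members were all probe sets annotated to one of these genes alone, and each probe set was kept apart. The genes had 18 such probe sets. 2 of them held only zeros and 16 were measured, out of 24404 probe sets tested in a table of 45101. The measured probe sets covered 9 of the 10 genes. The only probe set of Hes1, 1418102_at, and one of the probe sets of Jag2, 1426430_at, were the pair at 0, so Hes1 has no value here.

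RNA was taken from LSK cells of the bone marrow, which are lineage-negative cells with Sca-1 and Kit on their surface and include blood stem cells as well as early progenitors of many lineages. The 4 control arrays came from normal mice, labelled WT, and the 4 Msi2 KO arrays from mice with a conditional knockout of Msi2, the gene of the RNA-binding protein Musashi-2. The promoter that drove the deletion, its timing, and the strain, age and sex of the mice are not given in the sources used here. Nor do they say whether an array stands for 1 mouse or a pool, so a p-value measures the spread between these arrays. The values are log2 signals per probe set, on which a difference of 1 is a doubling, and the precision is limited by the 4 arrays per group.

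Notch receptors are surface proteins that are cut when a ligand of the Jagged or Delta-like kind on a neighbouring cell binds them. The part set free enters the nucleus, joins the DNA-binding protein encoded by Rbpj and switches on targets such as the repressor gene Hes1. Fringe enzymes, among them those encoded by Lfng and Mfng, add sugars to the receptor and alter which ligands it answers to, and Deltex proteins such as Dtx4 and the adaptor Numb act on the receptor's ubiquitination and trafficking. Notch signalling is known in blood for directing lymphoid progenitors to the T lineage. Musashi-1 is known from mouse neural cells to bind the mRNA of Numb and to hold back its translation, and these arrays measure mRNA and not protein.

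Promoter sequence was looked up because the product of Rbpj recognises the core letters TGGGAA, so that a promoter with them can be set beside the level of its gene. RefSeq promoters of GRCm38.p6 were at hand for 7 of the 10 genes, and the 250 bases before the start are considered. The letters TGGGAA on either strand were present in 6510 of 27025 genes (24.1%) and in 2 of these 7, Rbpj and Lfng, each with a pair of matches. They were not in the windows of Notch1, Notch2, Jag2, Dll1 and Numb. Windows are shown for a few members, that of Notch1, whose signal differed most between the groups, and those of Rbpj and Lfng, which hold matches. Capitals mark TGGGAA or its reverse complement, 5' to 3' on the strand of the gene. The matches begin 149 and 65 bases before the start of Rbpj that is shown, and 135 and 108 bases before that of Lfng. Another listed start of Rbpj has 1 match in its window, 205 bases before it, at the same site as the match at 65. The windows lie at chr2:26503823-26504072 on the minus strand for Notch1, chr5:53590096-53590345 on the plus strand for Rbpj and chr5:140607091-140607340 on the plus strand for Lfng.
Notch1: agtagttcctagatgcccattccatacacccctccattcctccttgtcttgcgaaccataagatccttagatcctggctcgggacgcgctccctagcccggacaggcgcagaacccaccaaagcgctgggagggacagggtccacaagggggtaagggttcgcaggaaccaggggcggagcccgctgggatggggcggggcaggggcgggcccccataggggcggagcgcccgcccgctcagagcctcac
Rbpj: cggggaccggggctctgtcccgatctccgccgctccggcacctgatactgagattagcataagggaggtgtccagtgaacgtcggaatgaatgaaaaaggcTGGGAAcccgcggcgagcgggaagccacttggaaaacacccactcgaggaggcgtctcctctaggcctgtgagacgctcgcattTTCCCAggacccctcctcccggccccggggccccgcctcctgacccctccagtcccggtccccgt
Lfng: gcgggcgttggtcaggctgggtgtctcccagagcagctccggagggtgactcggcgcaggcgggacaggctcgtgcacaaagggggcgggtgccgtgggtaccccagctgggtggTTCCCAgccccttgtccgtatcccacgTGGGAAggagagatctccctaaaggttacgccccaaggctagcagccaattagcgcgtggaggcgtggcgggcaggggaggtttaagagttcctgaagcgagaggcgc

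Several facts of the arrays bear on what follows. The residual Msi2 signal, taken over 4 bright probe sets as a percentage of the controls' mean, was 73.2% for Msi2 KO 1, 63.7% for Msi2 KO 2, 15.2% for Msi2 KO 3 and 40.4% for Msi2 KO 4, while single controls ranged from 90.7% to 111%. Msi2 KO 3 lay apart, with a score of 69.4 where the other arrays scored -39.4 to 17.0 on the leading principal component, which held 28.6% of the variance, and with the lowest array weight (0.538) and the lowest bioB spike-in signal (9.64 against 9.98 to 10.34). The transcript Xist of the inactive X chromosome read 3.83 to 4.19 for control 1 and for Msi2 KO 1 and 2, and 11.21 to 11.82 on the other 5, and the Y-linked gene Eif2s3y was the reverse (8.05 to 8.14, and 3.36 to 3.62). These 3 low-Xist arrays thus include 1 control and 2 KO arrays. Of the LSK markers Kit, Cd34, Flt3 and Ptprc were measured, all with signals of 7.52 or more on every array, and Ly6a was not analysed here.

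None of the 16 probe sets passed limma's test, at an adjusted p under 0.05 over all 24404 probe sets, where 0% of all probe sets passed. 3 probe sets, of Notch1, Jag2 and Mfng, were lower in KO at an unadjusted p under 0.05, against 4.84% of all probe sets, and 0 were higher at that level, against 4.87%. The 2 groups were fully separated for 1 of the 16, a Notch1 probe set with KO lower, as they were for 2.96% of all probe sets lower and 3.12% higher. 11 of the 16 differences were below 0, against 49.9% of all probe sets, and their median was -0.08 against 0.00 over all. Of the 9 genes, 8 were lower on their brightest probe set, against 49.6% of all genes, and the median of these was -0.12. Among the 8, the differences of Numb (-0.05) and Rbpj (-0.09) were small, and turned to 0.01 and 0.07 with the mean of each gene's probe sets. The 10 genes were chosen with earlier results of these data known, so these counts do not test for a shift of the pathway.

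**Figure D1:**
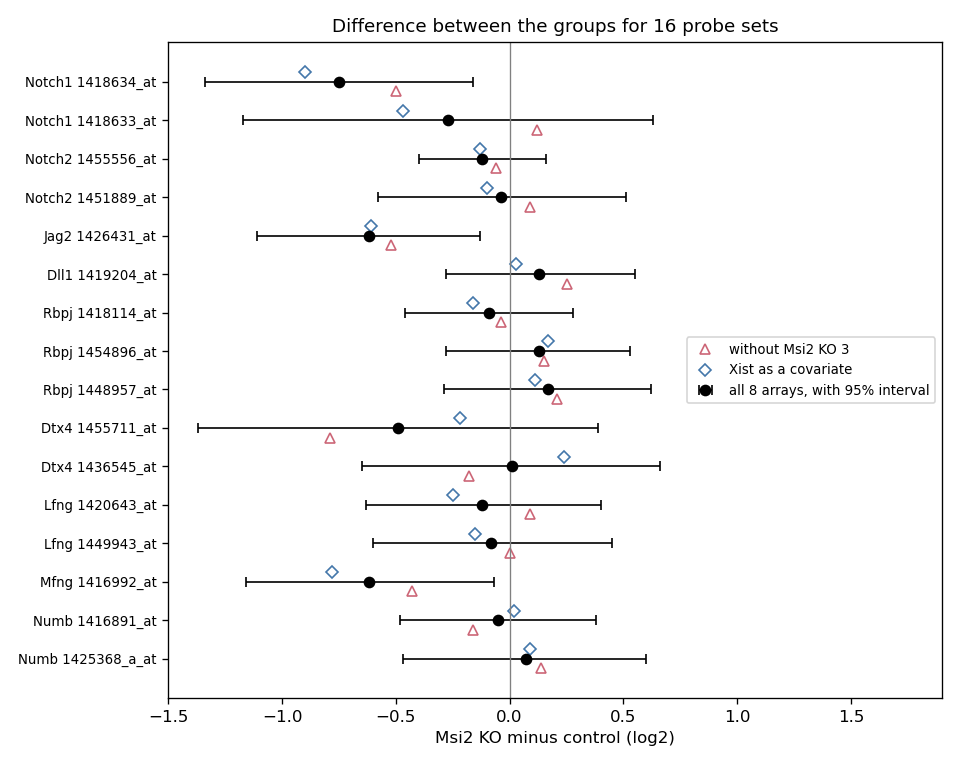
Msi2 KO minus control log2 signal of the 16 measured probe sets, with limma's 95% interval over all 8 arrays (black), and the same difference without Msi2 KO 3 (triangles) or with Xist as a covariate (diamonds). The intervals of Notch1 1418634_at (-1.34 to -0.16), Jag2 (-1.11 to -0.13) and Mfng (-1.16 to -0.07) lie below 0, and those of the other 13 probe sets include it.

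Notch1, the receptor required for T cell development, was lower in KO with its brighter probe set, on which each KO array read below each control. On 1418634_at the controls read 9.09, 8.95, 8.99 and 8.96 and the KO arrays 8.83, 8.56, 7.50 and 8.11, in the order of their replicate numbers. The controls lay within a narrow band, and the KO arrays spread downward from just below it to Msi2 KO 3. The means were 9.0 ± 0.07 in control and 8.25 ± 0.58 in KO (SD, n = 4 each), a difference of -0.75 ± 0.26 (SE), or 1.68-fold lower. Limma gave an adjusted p of 0.440, and an exact permutation test (two-sided) gave 0.0286, the lowest p possible with these group sizes. Without Msi2 KO 3 the difference was -0.50 ± 0.18 (SE; limma adjusted p 0.519), and the remaining KO arrays still lay below all controls, as did 4.81% of all probe sets in that setting. It was -1.16 among the high-Xist arrays alone and -0.40 among the low-Xist arrays, the latter with 1 control, and with Xist as a covariate it was -0.90 ± 0.22 (SE; limma adjusted p 0.242).

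The second Notch1 probe set, 1418633_at, did not separate the groups. Its controls read 7.18, 7.31, 6.36 and 6.83 and its KO arrays 7.53, 6.80, 5.48 and 6.78. Msi2 KO 1 was the highest and Msi2 KO 3 the lowest of the 8 arrays. The difference was -0.27 ± 0.40 (SE; limma adjusted p 0.869) and turned to 0.12 without Msi2 KO 3. Msi2 KO 2 and Msi2 KO 4 lay among the controls. Both Notch1 probe sets thus placed Msi2 KO 3 below all controls and differed on the other KO arrays, which lay below the controls on 1418634_at and not on 1418633_at.

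Notch2, the related receptor known for its part in B cell subsets and in blood progenitors, differed little. On 1455556_at the controls read 11.25, 11.21, 11.33 and 11.29 and the KO arrays 11.29, 11.10, 10.99 and 11.24, so that Msi2 KO 2 and Msi2 KO 3 lay below the controls and the other KO arrays among them. The difference was -0.12 ± 0.12 (SE), with a 95% interval of -0.40 to 0.16 (limma adjusted p 0.808). The dimmer 1451889_at ran from 8.40 to 9.31 in controls and from 8.49 to 9.28 in KO, with overlapping groups and a difference of -0.04 ± 0.24 (SE).

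**Figure D2:**
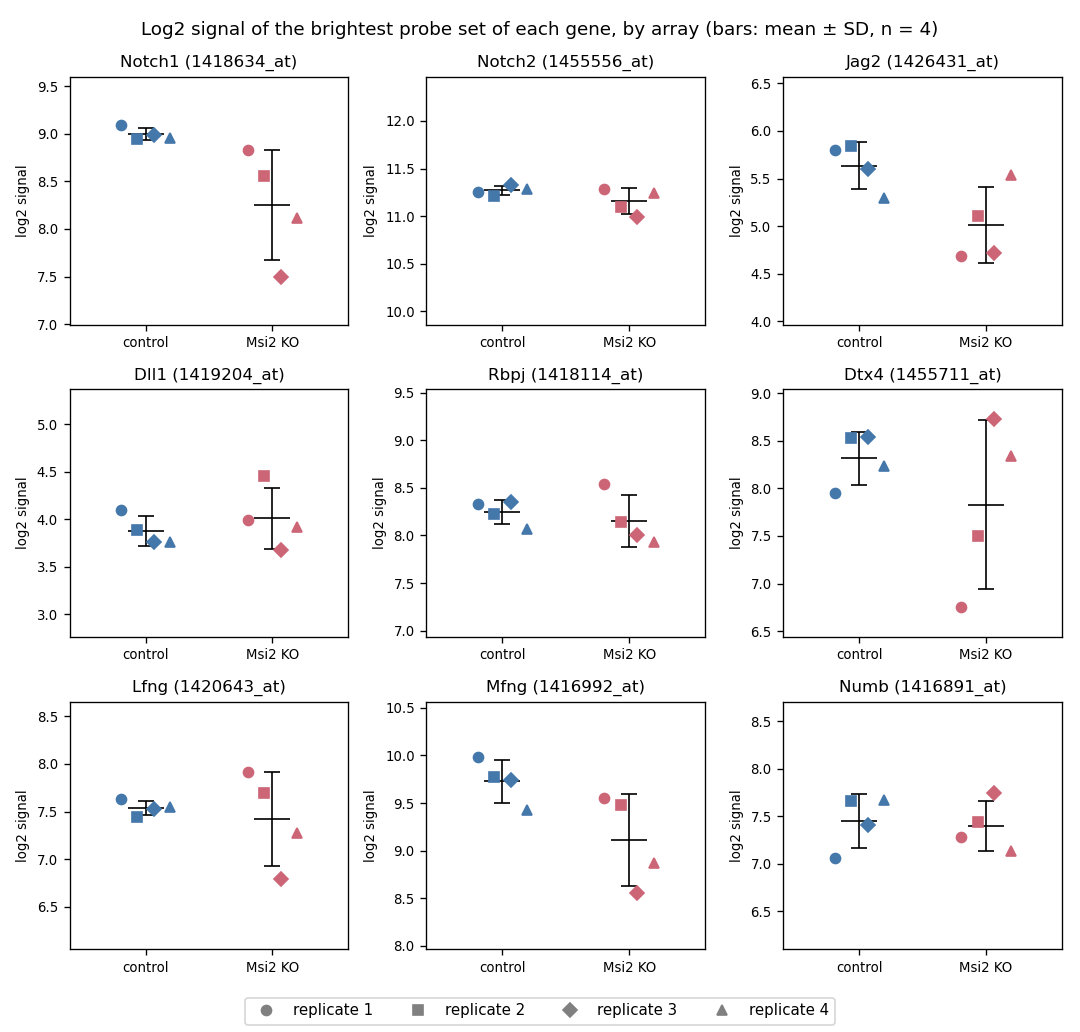
Log2 signal of the brightest probe set of each of the 9 measured genes on every array, with mean ± SD (n = 4 per group) and every panel drawn over the same span of log2 units. For Notch1 the KO arrays (7.50 to 8.83) lie below all controls (8.95 to 9.09), while for Numb both groups share one range (7.06 to 7.67 in control, 7.14 to 7.75 in KO).

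Of the ligands, Jag2 was lower on most KO arrays and Dll1 was not shown to lie above background. Jag2 encodes a Jagged ligand of Notch receptors. Its measured probe set 1426431_at read 5.80, 5.84, 5.60 and 5.30 in controls and 4.69, 5.11, 4.72 and 5.54 in KO. 3 KO arrays were below every control, and Msi2 KO 4 lay among the controls, above control 4. The difference was -0.62 ± 0.22 (SE), with a limma adjusted p of 0.442 and a two-sided exact permutation p of 0.0571. Without Msi2 KO 3 it was -0.52 (limma adjusted p 0.573). Its signals were dim, with a KO mean of 5.02, so no fold is given.

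Dll1, a Delta-like ligand, ran from 3.76 to 4.10 in controls and from 3.68 to 4.45 in KO. These values overlap those of Xist on the low-Xist arrays (3.83 to 4.19), so Dll1 was not shown to lie above background. Its difference was 0.13 ± 0.18 (SE; limma adjusted p 0.858).

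Mfng, which encodes a fringe glycosyltransferase, was lower in KO in a pattern like that of Notch1. On 1416992_at the controls read 9.98, 9.77, 9.74 and 9.43 and the KO arrays 9.55, 9.48, 8.55 and 8.87. Msi2 KO 3 and Msi2 KO 4 lay below every control, and Msi2 KO 1 and Msi2 KO 2 just above the lowest, control 4. The difference was -0.62 ± 0.24 (SE), or 1.53-fold lower, with a limma adjusted p of 0.475 and a two-sided exact permutation p of 0.0857. Without Msi2 KO 3 it was -0.43 ± 0.21 (limma adjusted p 0.616), and with Xist as a covariate -0.78 ± 0.17 (limma adjusted p 0.203), the smallest adjusted p of any of the 16 probe sets in any setting tried. Among the high-Xist arrays alone the difference was -0.93, and among the low-Xist arrays -0.46.

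Lfng, a second fringe gene, had a small difference that hid a wide spread among the KO arrays. On 1420643_at the controls read 7.63, 7.44, 7.53 and 7.55 and the KO arrays 7.92, 7.69, 6.79 and 7.28. Msi2 KO 1 and Msi2 KO 2 lay above every control and Msi2 KO 3 and Msi2 KO 4 below. The SD was 0.08 in controls and 0.50 in KO, and the difference -0.12 ± 0.23 (SE; limma adjusted p 0.908) turned to 0.09 without Msi2 KO 3. The other probe set, 1449943_at, ran from 5.33 to 6.32 in controls and from 5.66 to 6.20 in KO, with a difference of -0.08 ± 0.23 (SE).

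The KO arrays stood in the same order for Notch1 1418634_at, Mfng, Lfng 1420643_at and Notch1 1418633_at as for the brightest probe set of Msi2, 1421230_a_at. That order, from the highest, was Msi2 KO 1, Msi2 KO 2, Msi2 KO 4 and Msi2 KO 3, and the Msi2 signals were 11.36, 11.20, 10.38 and 8.73. The bright Msi2 probe sets 1435521_at and 1436818_a_at had the same order. On 1435520_at Msi2 KO 2 (10.16) stood above Msi2 KO 1 (10.02). The order of 1421230_a_at was that of 4 of the 16 probe sets and of 7.08% of all probe sets. The order was noted after the values were seen. Msi2 KO 3 was the lowest of the 8 arrays for 6 of the 16 probe sets and for 18.7% of all, and the highest for 3 and for 20.2%. It is also the array with the lowest spike-in signal. Low Msi2, the standing apart of Msi2 KO 3 and the high Xist of Msi2 KO 3 and Msi2 KO 4 fall on the same arrays here and cannot be told apart. Across the 16 probe sets the median SD was 0.265 in controls and 0.358 in KO, against 0.245 and 0.284 over all probe sets.

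**Figure D3:**
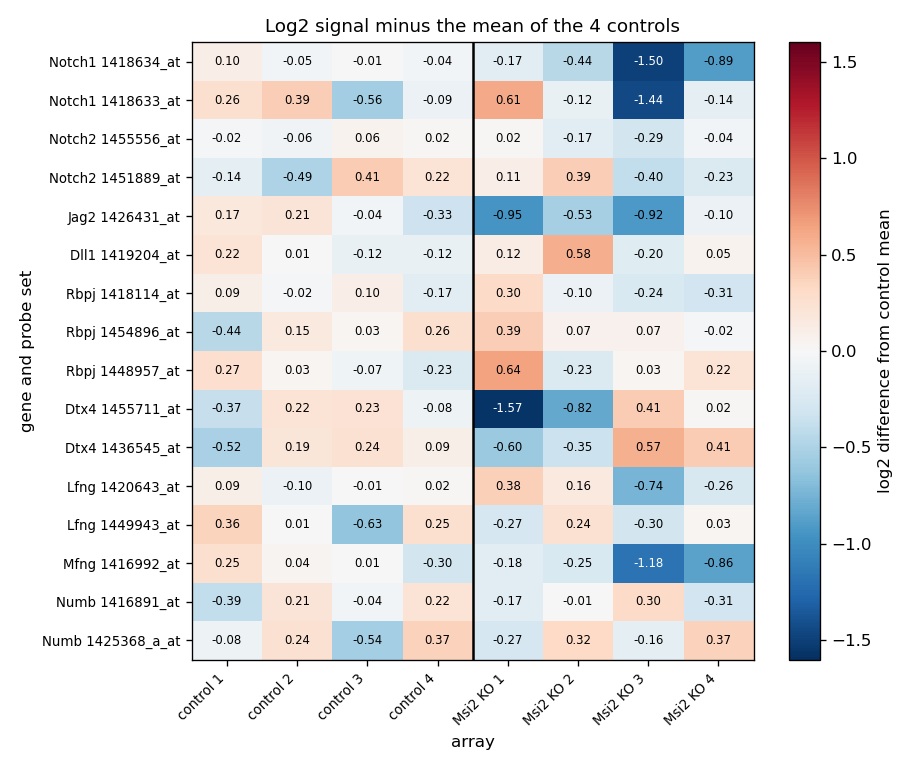
Log2 signal of the 16 measured probe sets on each array minus the mean of the 4 controls, with the value in each cell, blue below and red above the control mean. The lowest cells of Notch1 (-1.5 and -1.44) and Mfng (-1.18) fall on Msi2 KO 3, while that of Dtx4 1455711_at (-1.57) falls on Msi2 KO 1.

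Rbpj, the gene of the DNA-binding partner of all Notch receptors, had 3 probe sets with no common direction. On 1418114_at the controls read 8.33, 8.23, 8.35 and 8.07 and the KO arrays 8.54, 8.14, 8.0 and 7.93, a difference of -0.09 ± 0.16 (SE). Msi2 KO 1 was above and Msi2 KO 3 and Msi2 KO 4 below all controls. The differences of 1454896_at (0.13 ± 0.18, SE) and 1448957_at (0.17 ± 0.20, SE) were above 0, and Msi2 KO 1 was the highest array on all 3 probe sets. The 95% intervals of the 3 differences together ran from -0.46 to 0.62, and the limma adjusted p lay between 0.841 and 0.898.

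Numb, the inhibitor of Notch, did not differ detectably in mRNA. On 1416891_at the controls read 7.06, 7.66, 7.41 and 7.67 and the KO arrays 7.28, 7.44, 7.75 and 7.14. The groups covered nearly one range, and Msi2 KO 3, with the least Msi2, was the highest array and Msi2 KO 4, with the next least, the second lowest. The difference was -0.05 ± 0.19 (SE), with a 95% interval of -0.48 to 0.38, a limma adjusted p of 0.962 and a two-sided exact permutation p of 0.83. The dim 1425368_a_at ran from 4.55 to 5.46 in controls and from 4.82 to 5.46 in KO, with a difference of 0.07 ± 0.24 (SE; limma adjusted p 0.958). Its lowest signals were near background.

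For Dtx4, which encodes a Deltex ubiquitin ligase, the low-Xist arrays did not overlap the others, while the KO and control arrays did overlap. On 1455711_at the controls read 7.95, 8.53, 8.54 and 8.24 and the KO arrays 6.75, 7.50, 8.73 and 8.34. On 1436545_at they read 6.10, 6.81, 6.87 and 6.72 in controls and 6.02, 6.27, 7.19 and 7.04 in KO. On both probe sets the 3 low-Xist arrays, control 1, Msi2 KO 1 and Msi2 KO 2, lay below the 5 others, by 1.08 and 0.79 on average, as 3.33% of all probe sets did. The Xist term of the covariate fit had a limma adjusted p of 0.345 on 1455711_at and 0.186 on 1436545_at, so neither passed over all probe sets, of which 0.0533% did.

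The Dtx4 difference between the groups moved with this split and with single arrays. It was -0.49 ± 0.39 (SE; limma adjusted p 0.730) on 1455711_at and 0.01 ± 0.29 on 1436545_at (SE; limma adjusted p 0.997). The difference on 1455711_at was -0.13 without Msi2 KO 1 and -0.79 without Msi2 KO 3, and on 1436545_at it was 0.21 and -0.18 in the same order. With Xist as a covariate these were -0.22 ± 0.27 and 0.24 ± 0.14 (SE). Among the low-Xist arrays alone, with 1 control, 1455711_at differed by -0.83 and 1436545_at by 0.05, so the large difference of the first probe set there was not shared by the second. Among the high-Xist arrays alone 1455711_at differed by 0.09. On 1436545_at the KO arrays with high Xist (7.04 and 7.19) lay above the controls with high Xist (6.72 to 6.87), a difference of 0.31 (limma adjusted p 0.489), in a setting where 30.3% of all probe sets were separated. Lfng 1420643_at went the opposite way, with the 3 low-Xist arrays above the 5 others by 0.43 on average, as 3.15% of all probe sets did. Control 1 (7.63) lay just above the other controls there (7.44 to 7.55). On the other Lfng probe set, 1449943_at, the low-Xist arrays overlapped the others. Dll1 is not read here, since it was not shown to lie above background. The split by Xist was examined after the values were seen, and the sex of the mice was not tested apart from other ways in which these arrays may differ.

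**Figure D4:**
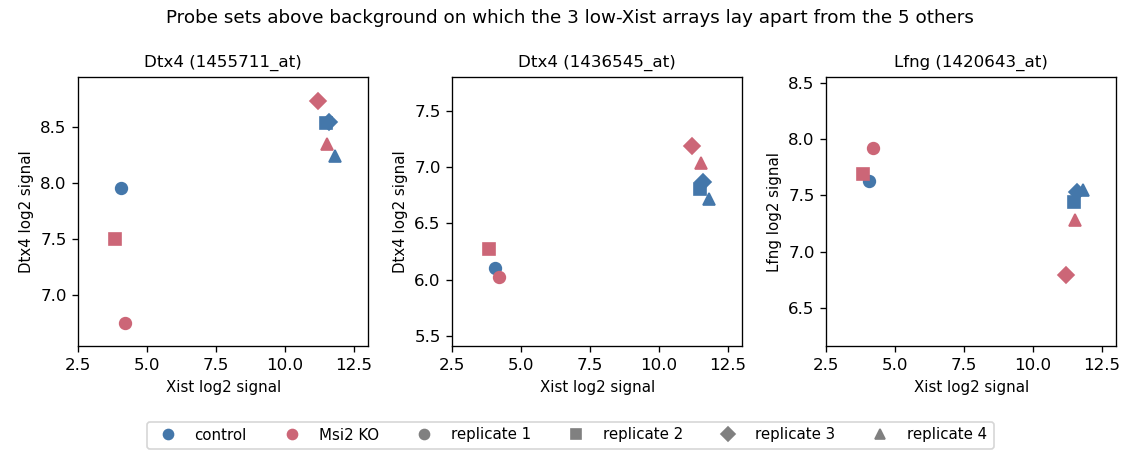
Log2 signal of Dtx4 (both probe sets) and Lfng 1420643_at against Xist log2 signal on the 8 arrays, with controls in blue, Msi2 KO in red and one marker shape per replicate number. The 3 arrays with Xist between 3.83 and 4.19 lie below the 5 others for Dtx4 and above them for Lfng.

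Other genes of the pathway were taken from a list of 57 by role, each represented by its brightest probe set. Of these 33 were measured, 18 were listed at 0 and 6 were not analysed here. None of the 33 passed limma's test over all probe sets (0% of the genes' brightest probe sets passed), 14 were higher and 19 lower in KO, and the median difference was -0.12 against 0.00 over all 10720 genes. At an unadjusted p under 0.05 there were 5 with KO higher and 0 with KO lower, against 5.6% and 5.5% of all genes. The groups did not overlap for 3 with KO higher and 0 with KO lower, against 3.63% and 3.48% of all genes. This list was also chosen with earlier results of these data known. All 4 other ligands of the list, Jag1, Dll3, Dll4 and Dlk1, were listed at 0.

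The non-overlapping genes were Spen, Psen2 and Ctbp1, all higher in KO. Spen encodes a corepressor that binds the product of Rbpj, and it read 6.60 ± 0.08 in control and 7.23 ± 0.20 in KO (SD, n = 4 each), a difference of 0.63 (limma adjusted p 0.323). Ctbp1, a corepressor gene as well, was 0.50 higher (limma adjusted p 0.396). Psen2, a catalytic subunit of the gamma-secretase that cuts Notch, went from 6.22 ± 0.35 to 7.06 ± 0.23 (SD, n = 4 each), a difference of 0.84 (limma adjusted p 0.330). None of the 3 rested on Msi2 KO 3, without which they differed by 0.62, 0.48 and 0.82 in the order Spen, Ctbp1 and Psen2.

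On the lower side the smallest unadjusted p belonged to Neurl1b, a ubiquitin ligase of ligand endocytosis (-0.82, and -0.38 without Msi2 KO 3), and Fbxw7, a ubiquitin ligase that marks the free Notch fragment for destruction (-0.30). Both missed the threshold, at limma adjusted p of 0.550 and 0.573. The third fringe gene, Rfng, was 0.72 higher (limma adjusted p 0.378), opposite in sign to Mfng, and Dtx2, a Deltex gene like Dtx4, was 0.69 higher (limma adjusted p 0.510), or 0.90 without Msi2 KO 3. The groups overlapped for both, and with Spen, Psen2 and Ctbp1 they were the 5 at an unadjusted p under 0.05. Of the 14 genes listed as targets 9 were listed at 0, among them Hes7, Hey1, Hey2, Heyl, Ptcra, Il2ra and Gata3. Whether the listed genes, Hes6 among them, answer to Notch in LSK cells was not tested. The 4 measured were Hes5 (-0.16), Hes6 (-0.18), Nrarp (-0.23) and Myc (0.16), with limma adjusted p between 0.767 and 0.915. The groups overlapped for all 4.

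**Figure D5:**
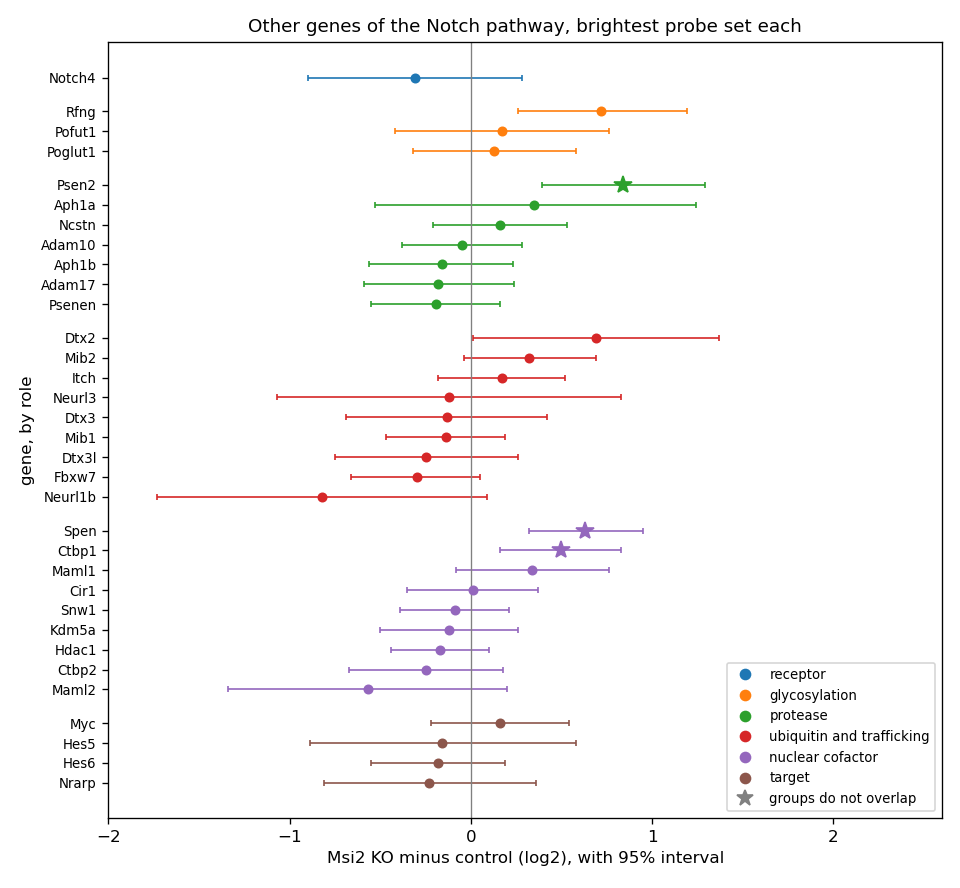
Msi2 KO minus control log2 signal of the 33 other measured pathway genes, grouped by role, with limma's 95% interval, and stars for genes whose groups do not overlap. The 3 stars, Spen (0.63), Psen2 (0.84) and Ctbp1 (0.50), lie above 0.

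Lists of cell type markers were read beside the lower Notch1, Jag2 and Mfng signals. RNA from a mixture of cells cannot tell fewer cells of a type from less RNA per cell. Of 10 T cell and thymocyte markers 8 were at 0 (Cd3d, Cd3e, Cd3g, Cd4, Cd8a, Cd8b1, Ptcra and Rag1), and Lat was the one measured, at 7.15 in control and 6.99 in KO. Of 9 genes listed as endothelial and stromal markers 5 were measured. Tek (-0.90), Tie1 (-0.79), Emcn (-0.67) and Pecam1 (-0.64) were lower in KO (limma adjusted p 0.425 to 0.661). Cdh5 was not shown to lie above background (3.38 in control and 3.61 in KO), and Kdr, Cxcl12, Lepr and Col1a1 were at 0. The summed signal of the measured genes was 39.8% to 75.8% of the control mean on the KO arrays against 93.5% to 105% on the controls. It rests on Tek, Tie1, Emcn and Pecam1, so it is not read here as a share of endothelial or stromal cells. The summed signal of 4 measured erythroid markers was 347% of the control mean on Msi2 KO 3 and 98.8% to 143% on the other KO arrays, against 69.9% to 139% on the controls. This sum is weighted to Tfrc (0.13, limma adjusted p 0.939), the brightest of them in control. The dimmer Klf1 (1.61), Gata1 (1.37) and Epor (1.46) were higher in KO (limma adjusted p 0.372 to 0.574). The summed LSK markers stood at 57.0% on Msi2 KO 3 and 91.3% to 99.2% on the other KO arrays. On the controls this sum was 98.0% to 102%. The LSK markers did not move together, as Kit was 0.34 higher in KO and Cd34 (-0.22), Flt3 (-0.62) and Ptprc (-0.44) were lower (limma adjusted p 0.475 to 0.772). Of the B cell markers Vpreb1 alone was measured (8.19 in control and 7.01 in KO, limma adjusted p 0.477). Its signal was 19.8% to 69.4% of the control mean on the KO arrays and 48.2% to 153% on the controls, so the groups overlapped. The summed signal of 4 measured myeloid markers was 85.8% to 109% on the KO arrays and 72.2% to 110% on the controls. That sum is weighted to the brightest, Mpo (-0.03) and Elane (0.33). The dimmer Cd68 (1.09, limma adjusted p 0.334) and Lyz2 (-0.79, limma adjusted p 0.372) went in opposite directions. The part of these shifts in the Notch1, Jag2 and Mfng differences was not tested.

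The genes most like Notch1 over the 8 arrays, among the brightest probe sets of all genes, were Nlrc3, Tpm2 and Repin1, at a Pearson r of 0.983, 0.982 and 0.982 as a measure of likeness only. For Numb they were Zkscan5, Rbm4b and Bdp1, at 0.974, 0.958 and 0.943. Above an r of 0.9 there were 127 genes with Notch1 and 17 with Numb, out of 10720.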

How the data were processed

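The deposited table holds log2 signals per probe set of 8 Affymetrix mouse arrays, normalized by the authors, and the submitters' processing notes name RMA (its version is unstated there). In it 20664 of 45101 probe sets (45.8%) are exactly 0 on each array, and none is 0 on a part of them. Zeros are not an output of RMA and no source used here names the step that made them, so these probe sets were left out, with the AFFX control probe sets. Values above 0 ran from 2.79 to 14.17, array medians from 7.03 to 7.07, and correlations between arrays from 0.942 to 0.983. Probe sets were named from the platform's annotation, updated through gene IDs and a RefSeq table of GRCm38.p6. 34958 carried 1 gene name, 932 several and 9211 none, and 0 probe sets were shared between a member and another gene.

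Groups were compared with lmFit and eBayes of limma 3.58.1 (two-sided, under R 4.3.3), with Benjamini-Hochberg adjustment over all 24404 probe sets and a threshold of 0.05. For single probe sets the exact permutation test ran through the 70 ways of assigning arrays. On simulated data of 24404 probe sets the fit recovered 38% of 200 probe sets changed by 1 on the log2 scale and 88.5% of those changed by 2. It also called 2 and 15 unchanged probe sets. The simulated noise was normal, independent between arrays and equally wide in both groups. In the data the KO arrays spread more (median SD 0.284 against 0.245 in control) and Msi2 KO 3 lay apart. These rates are thus not an estimate of the power on these arrays. Alternatives were other normalizations, filters, priors and weights, the replicate number as a block, Xist as a covariate or split, and leaving out each array. The 10 genes, the pathway and marker lists, and the rule for naming (all members, the pathway genes whose groups do not overlap or with the 2 smallest p per direction, and 3 genes most like Notch1 and Numb) were chosen with earlier results of these data known. Rfng, Dtx2 and the targets lie outside that rule and were named after their values were seen. Ptcra stands on both the pathway and the T cell list.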

Additional observations from a re-analysis of the deposited data

How the results depend on the processing

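No Notch or Numb probe set passed in any setting (0 throughout, lowest limma adjusted p 0.203), and Notch1 1418634_at, Notch2 1455556_at, Jag2 and Mfng kept their direction in every setting. Over all probe sets, 1 passed with repeated quantile normalization, 1 without dim probe sets, 1 with probe sets at 0 kept, 2 with a trend and robust prior, 1 with array weights, and 0 to 1 without each array in turn (1 without Msi2 KO 1). With the replicate block 0 passed. Same-numbered arrays deviated together with correlations of 0.132, -0.121, 0.079 and -0.038, so the numbers were not taken as pairs. The members with separated groups numbered 5 among the high-Xist arrays and 9 among the low-Xist arrays, where 30.3% and 70.3% of all probe sets were separated too. They numbered 1 to 3 when each array was left out, where 8.88% to 11.4% of all probe sets were separated, against 6.09% with all arrays. Jag2 and Mfng joined Notch1 without control 4 (9.26% of all probe sets), and Jag2 without Msi2 KO 4 (9.68%). No count of separated groups was made for settings that leave the values as they are (trend, weights, block, covariate).

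The sign turned in these cases, and the cause was not tested. Without each array in turn the differences ran from -0.56 to 0.12 for Notch1 1418633_at, -0.20 to 0.10 for Notch2 1451889_at, -0.01 to 0.25 for Dll1, -0.02 to 0.21 for Rbpj 1454896_at, -0.18 to 0.21 for Dtx4 1436545_at, -0.28 to 0.09 for Lfng 1420643_at, -0.29 to 0.05 for Lfng 1449943_at, -0.18 to 0.04 for Numb 1416891_at and -0.11 to 0.19 for Numb 1425368_a_at. The sign held for the other probe sets, at -0.94 to -0.50 for Notch1 1418634_at, -0.17 to -0.06 for Notch2 1455556_at, -0.80 to -0.51 for Jag2, -0.22 to -0.02 for Rbpj 1418114_at, 0.01 to 0.30 for Rbpj 1448957_at, -0.79 to -0.13 for Dtx4 1455711_at and -0.76 to -0.43 for Mfng. Among the low-Xist arrays Notch2 1451889_at gave 0.39, Rbpj 1418114_at 0.01, Rbpj 1448957_at -0.07, Lfng 1420643_at 0.18 and Numb 1416891_at 0.30. Among the high-Xist arrays Dll1 gave -0.00, Rbpj 1454896_at -0.12 and Dtx4 1455711_at 0.09. With array weights Notch2 1451889_at gave 0.01, Dtx4 1436545_at -0.02 and Lfng 1449943_at 0.04. Dtx4 1436545_at gave -0.00 with repeated quantile normalization and -0.01 with median centring, and Numb 1416891_at gave 0.02 with Xist as a covariate. The mean of a gene's probe sets gave 0.07 for Rbpj and 0.01 for Numb.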
